A study of Mus musculus with 6 samples.

Results

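The cyclin D, CDK4/6 and RB module is the switch through which growth signals admit a cell to the division cycle. Its 6 genes, the D cyclins Ccnd1, Ccnd2 and Ccnd3, the kinases Cdk4 and Cdk6 and the pocket protein Rb1, were taken by symbol from a table of 55487 genes. RNA had been measured in vascular endothelial cells (VECs) sorted from mouse retinas at postnatal day 7.5 (P7.5), with 3 libraries of Bmal1 FL/FL; tdTomato FL/+; Pdgf-icreER animals (Bmal1;CKO) and 3 of tdTomato FL/+; Pdgf-icreER animals (control). Both groups carried the tamoxifen-inducible Cre transgene, which also encodes GFP, and the tdTomato reporter, the animals came from a C57BL/6J background, and pups of both groups received tamoxifen daily from P0.5 to P2.5. The groups thus differed in the floxed Bmal1 alleles, and cells positive for both GFP and tdTomato were collected, so that recombination of the reporter, not of Bmal1, set the gate. The comparison asks how loss of the clock activator BMAL1 from VECs alters their transcripts. The study gives noon as the time of retina collection, so the values come from a single time of day. Values below are normalized counts, that is reads per gene divided by the size factor of the library, and libraries are numbered 1 to 3 (control) and 4 to 6 (Bmal1;CKO).

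In a resting cell RB holds E2F transcription factors at the promoters of S phase genes and keeps them silent. Mitogens induce D cyclins, which bind CDK4 or CDK6, and the active kinases phosphorylate RB so that E2F is released. INK4 proteins block the kinases, CIP/KIP proteins bind the cyclin complexes, and the pocket proteins p107 and p130 share the work of RB. In the growing retinal vasculature, VECs behind the sprouting front divide in response to VEGF. BMAL1 and its partner CLOCK activate genes through E-boxes, whose canonical letters are CACGTG and which the MYC family also reads.

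Sequences of the promoters of Cdk4 and Cdk6 are shown because they hold the canonical E-box and because both kinases were measured with BMAL1's gene targeted. RefSeq promoters of 300 bases (250 before and 50 after the start, GRCm38.p6) were found for 3 of the 6 genes, Ccnd3 (at 2 starts), Cdk4 and Cdk6, and not for Ccnd1, Ccnd2 and Rb1. The 250 bases before the start are printed 5′ to 3′ on the plus strand, with CACGTG in capitals, for Cdk4 at chr10:127063285-127063534 and for Cdk6 at chr5:3343643-3343892.
Cdk4: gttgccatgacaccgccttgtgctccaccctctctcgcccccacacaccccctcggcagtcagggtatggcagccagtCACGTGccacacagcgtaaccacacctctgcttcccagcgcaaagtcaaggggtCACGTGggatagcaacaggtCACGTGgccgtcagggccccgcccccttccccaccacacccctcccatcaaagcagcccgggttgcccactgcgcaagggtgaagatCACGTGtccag
Cdk6: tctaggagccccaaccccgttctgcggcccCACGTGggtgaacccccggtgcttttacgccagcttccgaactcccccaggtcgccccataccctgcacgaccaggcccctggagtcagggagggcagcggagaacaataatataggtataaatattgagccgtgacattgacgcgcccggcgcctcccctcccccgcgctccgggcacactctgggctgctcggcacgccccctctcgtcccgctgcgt
The Cdk4 promoter held 4 copies of CACGTG, which begin 172, 118, 98 and 11 bases before the start. The Cdk6 promoter held 1 copy, 220 bases before the start. This window lies inside the annotated Cdk6 gene, which begins at chr5:3341485, so the start used is not the first annotated one. Among 32851 RefSeq mouse promoters of the same length, 7.15% held at least 1 CACGTG and 8 (0.0244%) held at least 4. Neither Ccnd3 promoter held CACGTG. No match was found in the 4 windows for the E-box-like CACGTT (in 4.68% of all promoters), the E2F motif TTTNGCGC (1.38%) or the AP-1 motif TGANTCA (7.81%). Each motif was searched on both strands, and no hit overlapped another. These are matches of letters in 1 window per start and were not tested as binding sites.

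All 6 genes passed the filter of at least 10 reads in at least 3 libraries, as did 20459 genes in all. No member fell short of 10 reads in any library. Libraries held 71145068 to 104017800 reads on genes. Control library 1 and Bmal1;CKO library 4 had the fewest genes with a read (21598 and 22142, against 23889 to 27904 in the others), and control library 1 had the highest value of Ccnd2, Cdk6 and Rb1 among all 6. The targeted gene Arntl (Bmal1) read 1700, 3489 and 2928 in control and 1779, 2747 and 2415 in Bmal1;CKO, with a log2 fold change (Bmal1;CKO minus control) of -0.19 ± 0.36 (SE; limma-trend adjusted p = 0.924). The groups overlapped, so the level of Arntl over the whole gene did not separate the genotypes. By another measure, droplet digital PCR on sorted endothelial cells, the study reports significantly less Bmal1 transcript in the mutant. The values cover all exons of the gene, those outside the floxed segment included, and a count of the deleted exon alone was not analysed here. All 14 endothelial markers had at least 10 reads in every library, and among them Cldn5, the tight junction claudin of endothelium, read 60099 to 201094. Markers of other cells were also abundant, with C1qb of microglia at 594051 to 1855100. The transcript levels below therefore come from sorted samples in which endothelial cells were not the sole source of RNA, and fewer cells of a type and less RNA per cell cannot be told apart.

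Of the 6 genes, Ccnd1 was the one whose groups did not overlap, with a mean 1.66 times as high in Bmal1;CKO, whereas the other 5 overlapped. No member passed the test across all genes, the smallest adjusted p being 0.883 in limma-trend. That test called 0 of 20459 genes (0%) at an adjusted p under 0.05, with 1007 (4.92%) at an unadjusted p under 0.05, 648 higher (3.17%) and 359 lower (1.75%). The excess of higher genes depended on the model, with 389 higher and 388 lower in edgeR (TMM scaling) and 532 higher and 684 lower in DESeq2. The count in limma-trend was 1746 and 2332 without control library 1 or 3, and 328, 318 and 558 without Bmal1;CKO library 4, 5 or 6. Of the 6 members, 1 (Ccnd1, higher) had an unadjusted p under 0.05. DESeq2 on the recovered reads called 67 genes (0.327%) at an adjusted p under 0.05 and none of the 6. Non-overlapping groups occurred for 2283 of the tested genes (11.2%), 1354 of them higher in Bmal1;CKO (6.62%) and 929 lower (4.54%), so 1 gene in 6 lies near the background. The median log2 fold change of the 6 was 0.00, against 0.11 over all tested genes.

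**Figure D1:**
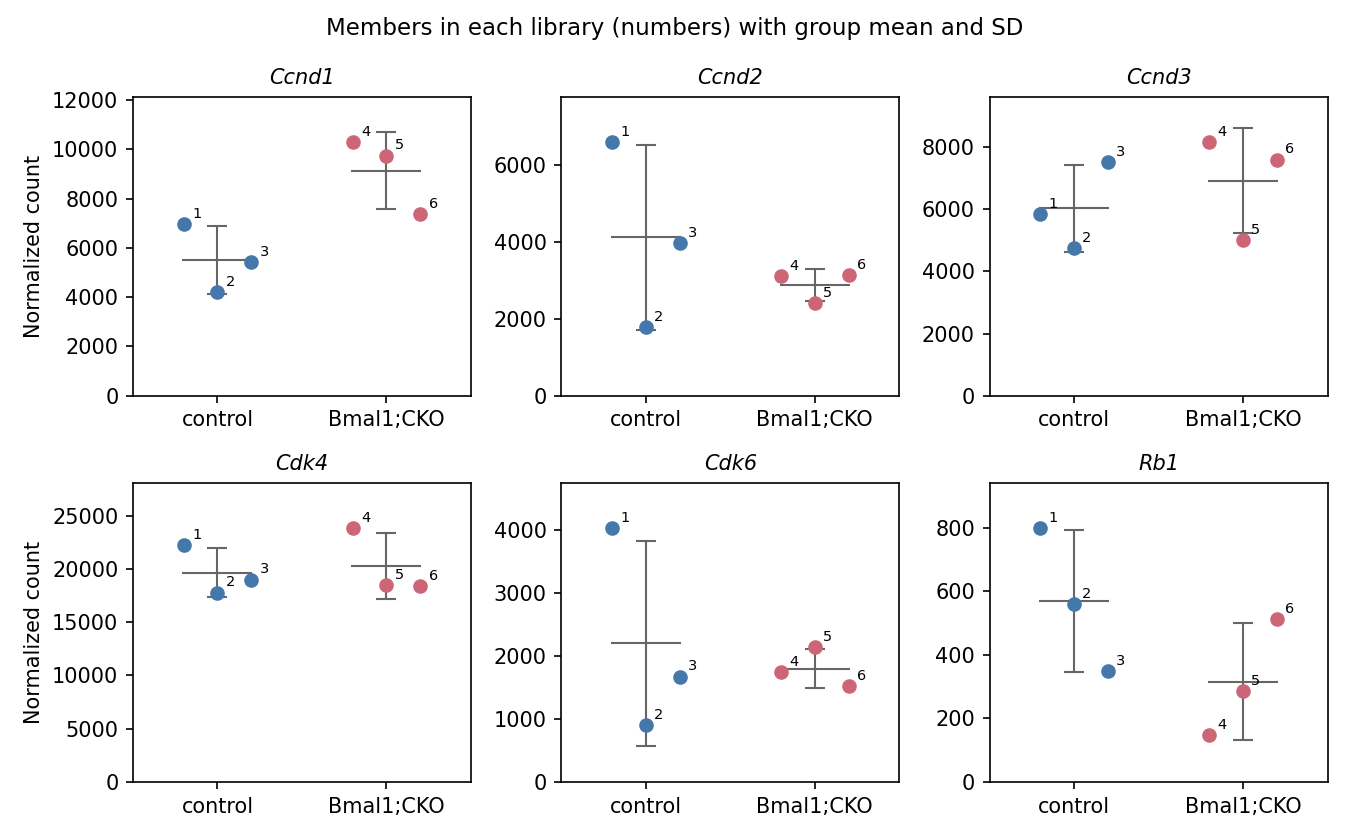
Normalized counts of the 6 genes (y axes, linear, from 0) in control libraries 1 to 3 and Bmal1;CKO libraries 4 to 6, with horizontal lines at the group means and bars of 1 SD. Ccnd1 is at 4193 to 6954 in control and 7375 to 10294 in Bmal1;CKO, without overlap, and library 1 stands highest for Ccnd2, Cdk6 and Rb1.

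Ccnd1 (ENSMUSG00000070348, chr7:144929931-144939925, minus strand, GRCm38), the D cyclin most tightly coupled to mitogenic signals, read 6954, 4193 and 5411 in control libraries 1, 2 and 3. It read 10294, 9748 and 7375 in Bmal1;CKO libraries 4, 5 and 6. Each Bmal1;CKO library was above each control library, and the closest pair was library 6 at 7375 over library 1 at 6954. The means were 5519 ± 1384 (SD, n = 3) and 9139 ± 1552 (SD, n = 3). The log2 fold change was 0.74 ± 0.28 (SE), with a 95% interval of 0.10 to 1.39 (limma-trend adjusted p = 0.883). By unadjusted p, 0.0297, Ccnd1 was gene 568 of 20459 in limma-trend, and 76.6% of the tested genes had a lower log2 fold change. The exact permutation test, two-sided, gave p = 0.1, the smallest that 3 against 3 libraries allow. Leaving out 1 library in turn gave 0.56 to 0.93, and the unadjusted p of limma-trend was between 0.0545 and 0.0933 without control library 2 or 3 or without Bmal1;CKO library 4 or 5.

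Ccnd1 lies on chromosome 7, as does Arntl, 31.6 Mb away. Any allele linked to the floxed Bmal1 locus and the deletion itself cannot be told apart for this gene. Of its exon bases, 23.4% (1100) are shared with LTO1, a gene on the opposite strand. Whether the counting used strand is not given in the sources used here, and the library kits do not mark strand. LTO1 read 2894, 2282 and 2451 in control and 3676, 3563 and 2992 in Bmal1;CKO, also without overlap. The log2 fold change of LTO1 was 0.43 ± 0.25 (SE; limma-trend adjusted p = 0.883). LTO1 was also the gene with the second-highest Pearson r to Ccnd1 over the 6 libraries (0.992), after Gem, a small GTPase induced by mitogens (0.993). Reads from the shared bases cannot be assigned to 1 of the 2 genes in these values.

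Ccnd2 (ENSMUSG00000000184, chr6:127125162-127152193, minus strand), a D cyclin often induced by growth factors through MYC, read 6599, 1790 and 3973 in control and 3104, 2411 and 3147 in Bmal1;CKO. The control libraries covered both ends of the range and enclosed all 3 Bmal1;CKO libraries. The means were 4120 ± 2408 and 2887 ± 413 (SD, n = 3 each), with a log2 fold change of -0.33 ± 0.47 (SE; limma-trend adjusted p = 0.903). The coefficient of variation was 58.4% in control and 14.3% in Bmal1;CKO. The estimate rested on library 1: without it the log2 fold change was 0.10, and without control library 2 it was -0.84. Of the antisense genes that share exon bases with Ccnd2, Gm43126 (372 bases) had no read in any library and 9330179D12Rik (368 bases) had 0 to 35 reads.

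Ccnd3 (ENSMUSG00000034165, chr17:47505051-47599691, plus strand), the D cyclin best known for its part in lymphocyte and erythroid growth, read 5835, 4737 and 7526 in control and 8160, 4998 and 7599 in Bmal1;CKO. Each group held 1 or more low and high libraries, and they overlapped. The log2 fold change was 0.19 ± 0.30 (SE), with a 95% interval of -0.50 to 0.88 (limma-trend adjusted p = 0.908). Leaving out 1 library in turn gave 0.03 (without control library 2) to 0.41 (without Bmal1;CKO library 5), with 0.06 and 0.11 without libraries 4 and 6 and 0.36 without control library 3. Bysl, which shares 361 exon bases with Ccnd3 on the opposite strand, read 3958, 4778 and 6586 in control and 6346, 5501 and 4890 in Bmal1;CKO. Ccnd3-ps, a processed pseudogene at chr4:139345300-139346180 that is 96.3% identical to Ccnd3 over 881 bases, read 5296 ± 361 in control and 5535 ± 1397 in Bmal1;CKO (SD, n = 3 each). In single libraries Ccnd3-ps held 0.758 to 1.06 times the normalized count of Ccnd3. The division of reads between gene and copy is therefore uncertain. Their sum was 11329 ± 1761 in control and 12454 ± 3077 in Bmal1;CKO (exact permutation test, two-sided, p = 0.7).

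**Figure D2:**
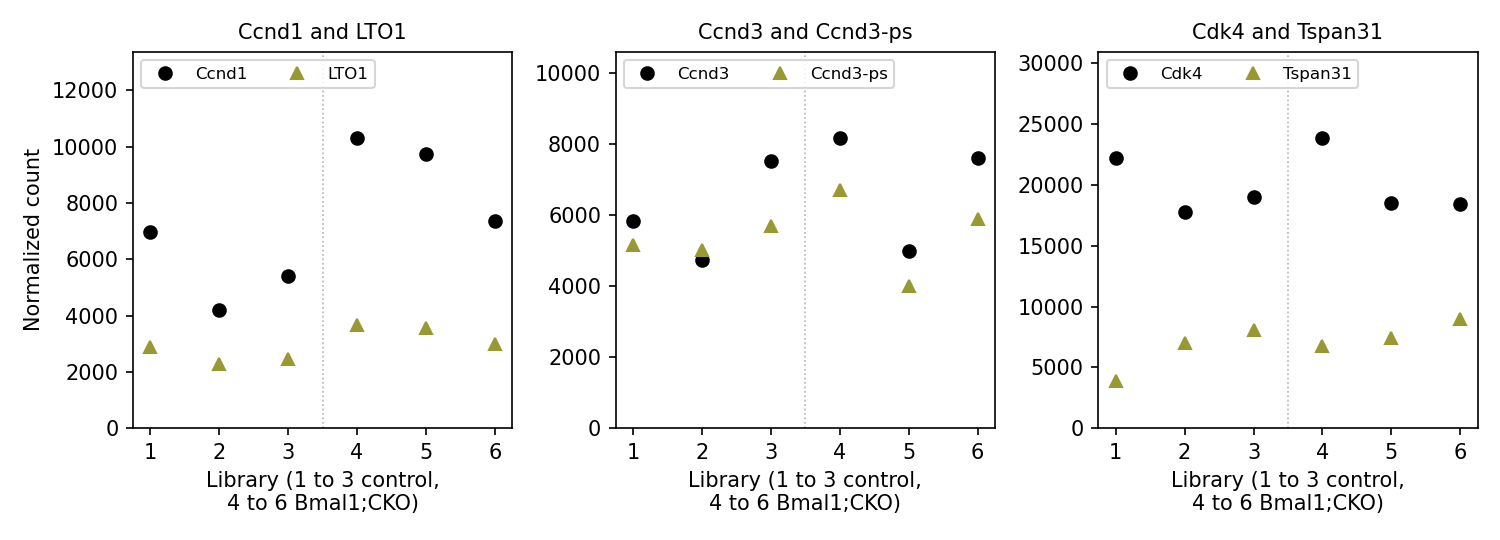
Normalized counts (y axes, linear) by library of Ccnd1, Ccnd3 and Cdk4 (black circles) and of a gene that shares exon bases or sequence with each (olive triangles); the dotted line separates control libraries 1 to 3 from Bmal1;CKO libraries 4 to 6. LTO1 is at 2282 to 2894 in control and 2992 to 3676 in Bmal1;CKO, Ccnd3-ps holds 0.758 to 1.06 times the count of Ccnd3, and Tspan31 is at 3892 to 9009.

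Cdk4 (ENSMUSG00000006728, chr10:127063534-127067920, plus strand), the kinase whose promoter carries 4 E-boxes in the sequence above, had the narrowest spread of the 6 genes, with its highest library 1.34 times its lowest. It read 22204, 17764 and 19001 in control and 23800, 18489 and 18411 in Bmal1;CKO. Library 4 was the highest and library 2 the lowest, with 1 high library in each group. The means were 19656 ± 2291 and 20233 ± 3089 (SD, n = 3 each), and the log2 fold change was 0.04 ± 0.24 (SE; limma-trend adjusted p = 0.979). The 95% interval of -0.51 to 0.59 leaves room for a difference of either sign. Tspan31, which shares 641 exon bases (19.7% of those of Cdk4) on the opposite strand, read 3892, 6989 and 8080 in control and 6716, 7405 and 9009 in Bmal1;CKO. It was thus lowest in library 1, where Cdk4 was second highest. The closest annotated copy of Cdk4, Gm7158, is 88.3% identical over 911 bases and read 188 ± 51.0 in control and 280 ± 122 in Bmal1;CKO (SD, n = 3 each).

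Cdk6 (ENSMUSG00000040274, chr5:3341485-3531008, plus strand), the partner kinase prominent in blood cells and their progenitors, read 4031, 901 and 1673 in control and 1748, 2139 and 1520 in Bmal1;CKO. As for Ccnd2, control libraries 1 and 2 were the highest and lowest of all and enclosed the Bmal1;CKO libraries. The log2 fold change was -0.03 ± 0.53 (SE), with a 95% interval of -1.27 to 1.21 (limma-trend adjusted p = 0.992). Leaving out control library 1 gave 0.54 and leaving out control library 2 gave -0.54, so the sign depended on which control library was kept. Gm17590, an antisense gene that shares 368 exon bases (2.63%) with Cdk6, had 0 reads in each control library and 35, 120 and 60 reads in Bmal1;CKO libraries 4, 5 and 6, few beside the 1243 to 2476 reads of Cdk6 there. Across the 6 libraries the log2 values of Cdk6 and Ccnd2 had a Pearson r of 0.85, a description of libraries that share the value of library 1.

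Rb1 (ENSMUSG00000022105, chr14:73183673-73325822, minus strand), which encodes RB, read 799, 560 and 350 in control and 148, 285 and 513 in Bmal1;CKO. It was the most lowly counted member, at 105 to 649 reads per library, and the most variable, with the highest library 5.41 times the lowest. Libraries 4 and 5 were below all controls, whereas library 6 lay between controls 2 and 3. The means were 569 ± 224 and 315 ± 185 (SD, n = 3 each). The log2 fold change of -0.95 ± 0.63 (SE), with a 95% interval of -2.42 to 0.53, was above that of only 6.95% of tested genes (limma-trend adjusted p = 0.883; exact permutation p = 0.2). Without library 4 the log2 fold change was -0.49, and without library 6 it was -1.39. Rb1 shares 488 and 408 exon bases with Rcbtb2 and Lpar6 on the opposite strand (8.11% and 6.78% of its exon bases). Rcbtb2 read 3779 to 6374, above Rb1 in every library, and Lpar6 read 629 to 3331, above Rb1 in all but control library 1.

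**Figure D3:**
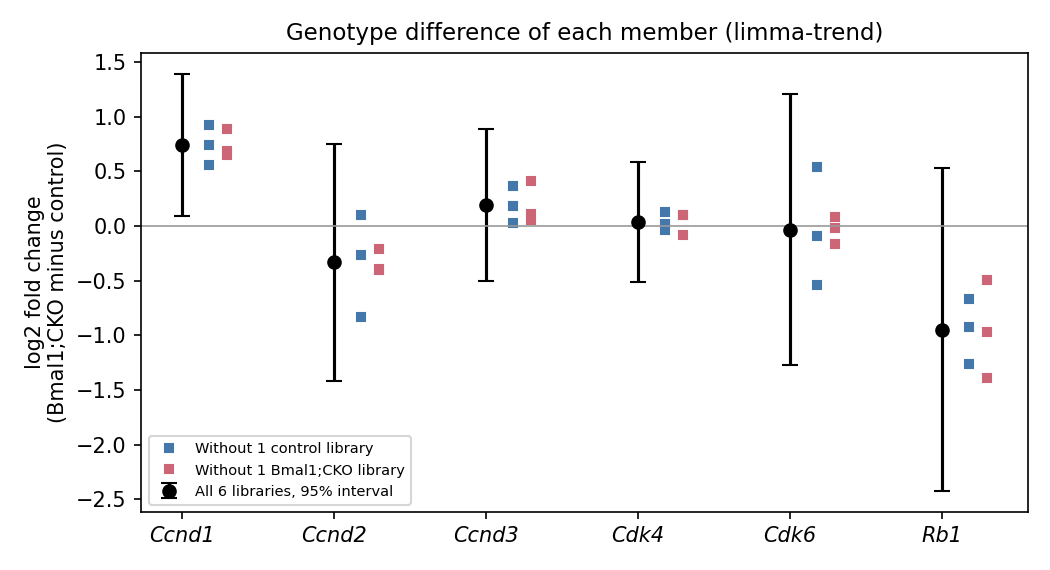
Log2 fold change (Bmal1;CKO minus control, y axis) of each gene by limma-trend with its 95% interval (black, all 6 libraries) and with 1 control library (blue) or 1 Bmal1;CKO library (red) left out. The interval lies above 0 for Ccnd1 alone before adjustment over all genes, and the values for Ccnd2, Cdk4 and Cdk6 lie on both sides of 0.

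Compared per kb of exon, so that genes of different length can be set side by side, the module was led by Cdk4. Its median over the 6 libraries was 5770 normalized counts per kb. Ccnd1 followed with 1522, Ccnd3 with 761, Ccnd2 with 332, Cdk6 with 122 and Rb1 with 71.8. Cdk4 was above Ccnd1, Ccnd1 above Ccnd3 and Ccnd2 above Cdk6 in 6 of 6 libraries. The other neighbours in this order, Ccnd3 over Ccnd2 and Cdk6 over Rb1, held in 5 of 6 libraries. Exon length here was that of all annotated exons joined, and with the longest coding transcript, an alternative chosen after seeing the data, Ccnd3 (3161 per kb) was above Ccnd1 (1916) in 5 of 6 libraries. The order of these 2 cyclins thus depended on the length used.

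Among the D cyclins, Ccnd1 made up 51.9%, 54.9% and 47.3% of the summed level per kb in control libraries 1 to 3, and 63.4%, 71.5% and 56.6% in Bmal1;CKO libraries 4 to 6. The groups did not overlap, with 51.4% ± 3.85 in control and 63.8% ± 7.44 in Bmal1;CKO (SD, n = 3 each), a difference of 12.4 percentage points. The exact permutation test, two-sided, gave p = 0.1, the smallest possible, and an adjusted p of 0.3 over the 3 shares. With the longest coding transcript as length the shares of Ccnd1 were 32.8%, 30.7% and 25.7% in control and 38.7%, 48.7% and 32.5% in Bmal1;CKO. The groups then overlapped, library 6 lying below control library 1 (exact permutation p = 0.2), and Ccnd3 held the larger mean share in both groups, so neither the size of the Ccnd1 share nor its separation was independent of the length used. The share of Ccnd2 was 17.9% ± 6.48 in control and 10.2% ± 1.70 in Bmal1;CKO, and that of Ccnd3 was 30.7% ± 6.39 and 26.0% ± 5.88, both with overlapping groups. The Ccnd2 difference of -7.76 percentage points was -4.39 without control library 1, and the Ccnd3 difference of -4.69 was -8.33 without control library 1 and -1.53 without Bmal1;CKO library 5. Their exact permutation p-values were 0.2 and 0.4, adjusted to 0.3 and 0.4. The summed level of the 3 cyclins was 2297 ± 622 normalized counts per kb in control and 3036 ± 361 in Bmal1;CKO (SD, n = 3 each; exact permutation p = 0.2), and the difference of 739 was 400.2 without control library 2. A share within a library does not depend on the size factor. It does depend on how reads were counted where Ccnd1 overlaps LTO1 and where Ccnd3 resembles Ccnd3-ps, which is not known.

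**Figure D4:**
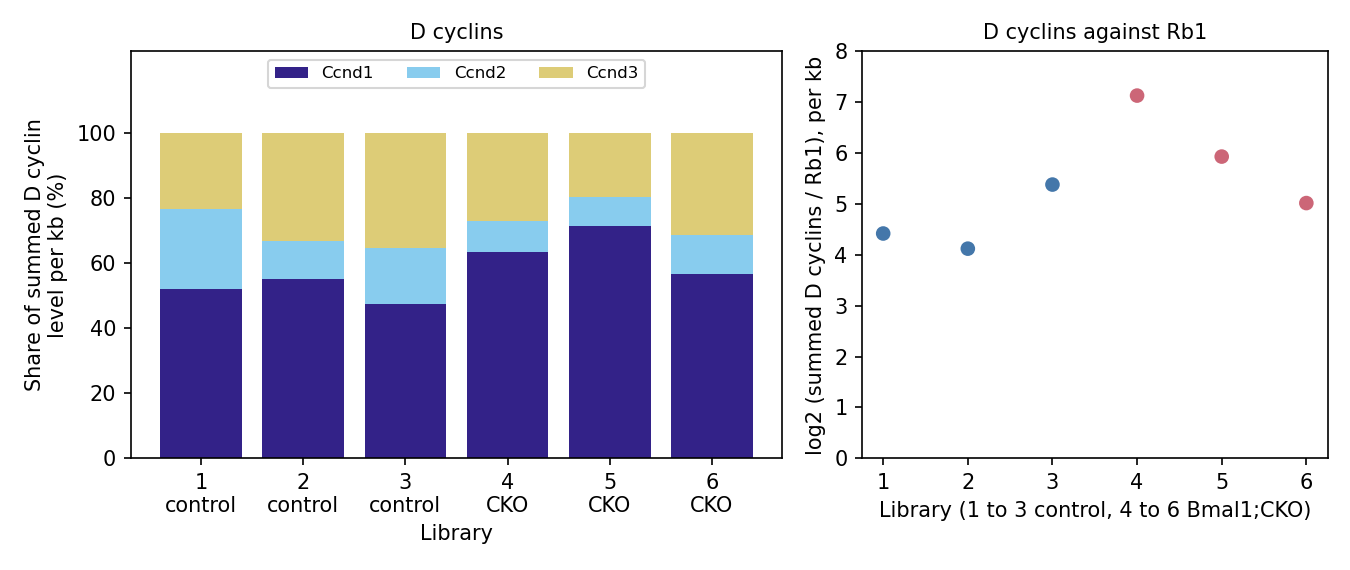
Left, stacked bars give the share of Ccnd1, Ccnd2 and Ccnd3 in the summed D cyclin level per kb (y axis, percent) for each library. Right, points give the log2 ratio of the summed D cyclins to Rb1 per kb for the same libraries, control in blue and Bmal1;CKO in red. The share of Ccnd1 is 47.3% to 54.9% in control and 56.6% to 71.5% in Bmal1;CKO, while the ratios to Rb1 overlap. Lengths are those of all annotated exons joined, and with the longest coding transcript the Ccnd1 shares overlap.

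Cdk6 contributed little beside Cdk4, at 2.40% ± 1.48 of their summed level per kb in control and 2.06% ± 0.494 in Bmal1;CKO (SD, n = 3 each; exact permutation p = 0.8). The log2 ratio of the summed D cyclins to Rb1 was 4.42, 4.12 and 5.38 in control and 7.13, 5.93 and 5.02 in Bmal1;CKO. Library 6 lay below control library 3, so the groups overlapped. The means were 4.64 ± 0.66 and 6.03 ± 1.06 (SD, n = 3 each; exact permutation p = 0.2), and the difference of 1.39 was 0.83 without Bmal1;CKO library 4.

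No inhibitor of the kinases had groups that did not overlap. Such groups occurred for 11.2% of all tested genes, so 0 of 6 lies near the background. Of the 6 tested INK4 and CIP/KIP genes, 5 were higher and 1 was lower in Bmal1;CKO. None had an unadjusted p under 0.05, beside 4.92% of all tested genes. The median log2 fold change was 0.09, against 0.11 over all tested genes. It was -0.06 to 0.24 with 1 library left out, the extremes without Bmal1;CKO library 4 and control library 1. Cdkn1b, which encodes p27, read 952 ± 317 in control and 1350 ± 423 in Bmal1;CKO. Cdkn2b (p15) read 482 ± 164 and 577 ± 79.6, and Cdkn1c (p57) read 4140 ± 1000.4 and 4558 ± 776. Cdkn2c (p18) and Cdkn2d (p19) had log2 fold changes of 0.03 and 0.01. Cdkn1a (p21), a target of p53, read 24954 in control library 1, against 6575 to 9973 in the other 5 libraries, which placed library 1 high for this brake as for Cdk6 and Ccnd2. Cdkn2a, which encodes p16 and ARF, had 0 to 24 reads per library and was not tested.

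Among 12 pocket proteins, E2F and DP factors, 6 were higher and 6 lower, with a median log2 fold change of 0.06. None had an unadjusted p under 0.05, beside 4.92% of all tested genes. Rbl1, which encodes p107, read 659, 429 and 647 in control and 255, 428 and 391 in Bmal1;CKO, so its groups were apart by less than 1 normalized count at their nearest libraries. Groups apart in the lower direction occurred for 4.54% of all tested genes. The log2 fold change of Rbl1 was -0.70 ± 0.48 (SE; limma-trend adjusted p = 0.883). Rbl2 (p130) read 734 ± 202 and 669 ± 172. E2f1, the activator E2F, read 2140, 2313 and 6280 in control and 7037, 5977 and 4844 in Bmal1;CKO, with a log2 fold change of 0.90 ± 0.44 (SE; limma-trend adjusted p = 0.883). Control library 3 was among the high libraries for E2f1, and the groups overlapped. The repressor E2f6 had 13 reads in library 1 and 1987 to 5211 in the others, so its log2 fold change of 2.10 rested on library 1. For E2f2, E2f3, E2f4, E2f5, E2f7 and E2f8 the log2 fold changes were between -0.10 and 0.61, with unadjusted p of 0.301 or more in limma-trend.

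Downstream of RB, 16 of the 22 E2F target genes were lower in Bmal1;CKO and 6 were higher. The median log2 fold change was -0.24, against 0.11 over all tested genes in limma-trend, and the direction of the list was not tested. An unadjusted p under 0.05 was reached by 1 gene of the 22, beside 4.92% of all tested genes. That gene was Ccne2, which encodes the cyclin E2 that activates CDK2. It read 193, 569 and 290 in control and 39.4, 98.5 and 135 in Bmal1;CKO, at 28 to 613 reads per library. Its log2 fold change was -1.96 ± 0.80 (SE; limma-trend adjusted p = 0.883). The groups of Ccne2 did not overlap, as for 4.54% of tested genes that were lower. Ccne1, the other cyclin E, read 1229 ± 132 and 907 ± 435. The replication factor Cdc6 read 224 ± 190 in control and 443 ± 93.4 in Bmal1;CKO, and the helicase subunit Mcm6 read 4407 ± 2017 and 2952 ± 791, both with overlapping groups. Without control library 3 the list median was -0.00289.

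Of the 12 proliferation markers 10 were lower in Bmal1;CKO and 2 were higher. Their median log2 fold change was -0.19, against 0.11 over all tested genes in limma-trend. The direction of the list as a whole was not tested. An unadjusted p under 0.05 was reached by 1 of the 12, beside 4.92% of all tested genes. Ccnb1, the mitotic cyclin, read 1521, 888 and 839 in control and 553, 407 and 507 in Bmal1;CKO, with a log2 fold change of -1.10 ± 0.42 (SE; limma-trend adjusted p = 0.883). Top2a, the topoisomerase of dividing cells, read 4394, 1485 and 1409 in control and 1291, 1036 and 1147 in Bmal1;CKO. Bub1, a spindle checkpoint kinase, read 239, 374 and 698 in control and 121, 140 and 218 in Bmal1;CKO. Each of these 3 had groups without overlap, the count of 3 in 12 standing beside 4.54% of all tested genes. Mki67, the Ki-67 gene, was at 4177 ± 1726 and 4311 ± 271 and overlapped. Mki67 and Foxm1 were the 2 markers above control, with log2 fold changes of 0.12 and 0.10, and the other 7 were lower with overlapping groups. The list median was -0.43 without Bmal1;CKO library 4 and -0.018 without library 5.

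The factors that induce D cyclins gave 8 higher and 9 lower of 17 tested. Their median log2 fold change was -0.01 (-0.13 without Bmal1;CKO library 6, 0.20 without control library 1). An unadjusted p under 0.05 was reached by 3 of the 17, beside 4.92% of all tested genes. Those 3 were the immediate early genes Egr1, Fos and Jun, of which FOS and JUN form AP-1. Egr1 read 70396, 21870 and 27724 in control and 106124, 81222 and 88712 in Bmal1;CKO. Its log2 fold change was 1.39 ± 0.45 (SE; limma-trend adjusted p = 0.883). Jun read 135546, 55393 and 65014 in control and 151246, 233568 and 138620 in Bmal1;CKO. Fos read 154759, 59463 and 60585 in control and 220476, 201329 and 144026 in Bmal1;CKO, and library 1 overlapped library 6. In all 3 genes control library 1 was the highest of its group, as it was for Ccnd1. The part of these genes in the values of Ccnd1 was not tested. Kdr, the VEGF receptor that is also among the endothelial markers, read 13655 ± 4922 in control and 8223 ± 2844 in Bmal1;CKO. Myc, another inducer and an E-box factor, read 4353 ± 1076 and 3813 ± 1434, and Fosl1, at 0 to 17 reads per library, was not tested.

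The assembly and turnover genes of the cyclin D complexes gave 6 higher and 6 lower of 12. Their median log2 fold change was -0.05 (-0.23 without control library 3, 0.12 without control library 1). None had an unadjusted p under 0.05, beside 4.92% of all tested genes. Ambra1, the substrate receptor of the ligase that degrades D cyclins, read 637 ± 322 in control and 1228 ± 465 in Bmal1;CKO (limma-trend adjusted p = 0.883). Fbxo31 and Skp2, F-box proteins of other ligases, had log2 fold changes of 0.55 and -0.97, with overlapping groups. The chaperones Cdc37 and Hsp90ab1, which fold CDK4, had log2 fold changes of 0.05 and 0.07.

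**Figure D5:**
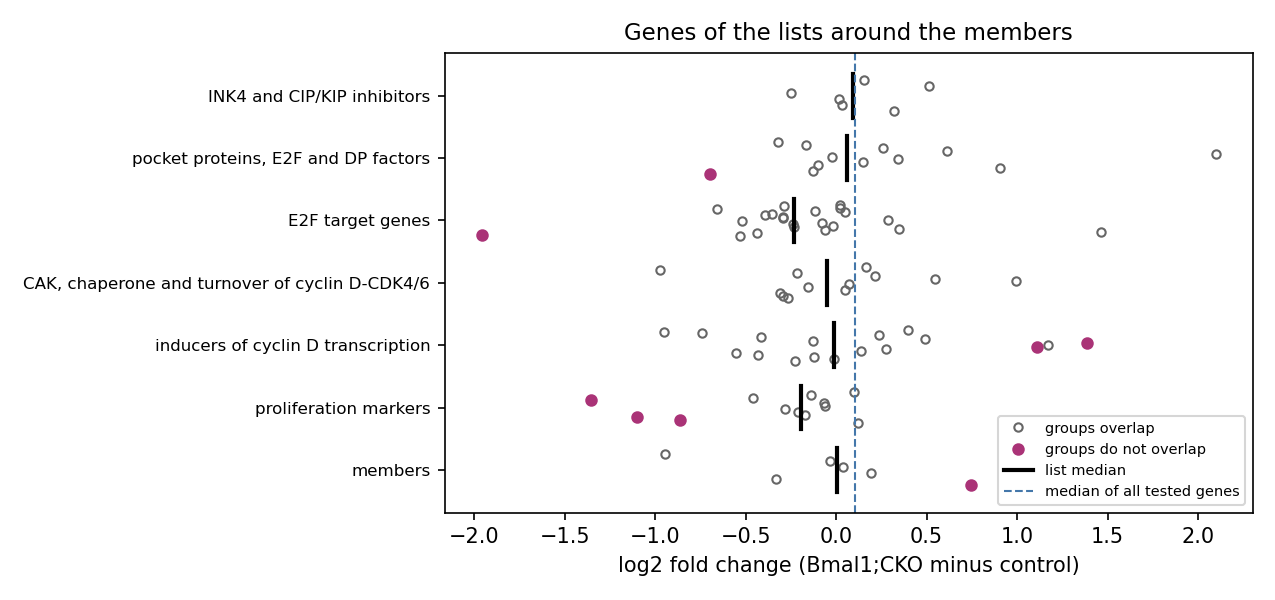
Log2 fold change (Bmal1;CKO minus control, x axis) of each tested gene in the lists around the module (rows), with filled points for genes whose groups do not overlap, black bars at list medians and a dashed line at the median of all tested genes, 0.11. List medians lie between -0.24 (E2F target genes) and 0.09 (inhibitors), and no point passes an adjusted p of 0.05.

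The genes whose log2 values were most like each member over the 6 libraries, among 15046 with at least 10 reads in every library, reached Pearson r of 0.988 to 0.997. For Ccnd2 they were Ankrd28 (0.996) and Lyplal1 (0.994), and for Cdk6 Marf1 and the TGF-β receptor Tgfbr1 (both 0.994). For Ccnd3 they were the lowly counted Gm4854 (0.989) and Cnn2-ps (0.988), for Cdk4 Gm11605 (0.994) and Eipr1 (0.993), and for Rb1 the poly(A) polymerase Tent4b (0.997) and the histone demethylase Kdm2a (0.995). These are the 2 highest of 15046 values for each member over only 6 libraries, and 23 to 82 genes exceeded an r of 0.95 with each member. Between members the highest r was that of Ccnd2 with Cdk6 (0.85) and the lowest that of Ccnd1 with Rb1 (-0.61).

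Markers of endothelium and of microglia leaned in opposite directions between the genotypes, and their values are set beside those of Ccnd1. Their summed levels overlapped between the groups. The 14 endothelial markers all had log2 fold changes below 0, at a median of -0.50, and summed to 220639 to 406224 in control and 133375 to 284763 in Bmal1;CKO. Of the 9 microglial markers 8 were higher (median log2 fold change 0.40), with sums of 1386180 to 4103350 and 2013410 to 3985840. The median microglial marker stood at 7.67, 6.57 and 10.7 times the median endothelial marker in control and at 13.6, 19.6 and 9.76 times in Bmal1;CKO. In each group the library with the lowest ratio also had the lowest Ccnd1, but the highest ratio did not go with the highest Ccnd1. Bmal1;CKO library 5, with the highest ratio, read 9748 for Ccnd1, below library 4 at 10294. Control library 3, with the highest ratio of its group, read 5411, below control library 1 at 6954. Control library 3 also had a higher ratio than Bmal1;CKO library 6 (10.7 against 9.76) but a lower Ccnd1 (5411 against 7375). All markers of both lists were above 0 in every library. Expressed relative to the mean log2 level of the endothelial markers in the same library, an alternative chosen after seeing the data, Ccnd1 was 1.29 higher in Bmal1;CKO on the log2 scale. Relative to the microglial markers it was 0.44 higher, and neither set of values overlapped between groups (exact permutation p = 0.1 for each). The closest pair against endothelial markers was library 6 at -0.51 over control library 3 at -0.58. Against microglial markers it was library 4 at -4.10 over control library 2 at -4.20. Both differences combine that of Ccnd1 with the mean log2 difference of the markers (-0.55 endothelial, 0.30 microglial). Of 11 rod markers, 10 were also lower in Bmal1;CKO (median log2 fold change -0.21), with sums of 610911 to 787883 in control and 486411 to 773125 in Bmal1;CKO. The summed levels of cone, Müller glia, bipolar, amacrine, ganglion cell, astrocyte, pericyte and erythroid markers also overlapped between groups. The part of the cell makeup in the level of any member was not tested.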

How the data were processed

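RNA from GFP/tdTomato double-positive cells was amplified with SMART v4 and made into Nextera XT libraries. The authors used FastQC and Trimmomatic on the reads, Bowtie for alignment to GRCm38 (mm10), featureCounts for counts per gene and DESeq2 for the comparison. The versions of these tools are not given in the sources used here. The authors deposited a signal per gene and library, the read count divided by the DESeq2 size factor, with the mean over libraries. The table the authors deposited also holds 3 score columns of their own comparison (log2 fold change, standard error and Wald statistic) and its p-values, none of which was used. Columns name the genotype only, so each was taken as a replicate of its genotype, with library numbers as in the table.

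Whole reads were recovered by multiplying each value by the size factor (0.711 to 1.40). That factor was inferred as the inverse of the smallest value above 0 in the library. Within a tolerance of 0.01 reads, widened in proportion for large counts, 100% of the values were whole. For the largest counts the check is therefore loose. The main test was limma-trend (limma 3.58.1, R 4.3.3) on log2(normalized count + 1) for genes that reached 10 reads in 3 or more libraries, and p-values were adjusted over all of them by the method of Benjamini and Hochberg. A fold change on this scale understates that of low genes. Alternatives were edgeR 4.0.16 and DESeq2 1.42.0 on recovered reads, limma-voom, TMM scaling, pseudocounts of 0.5 and 10, other filters and each library left out. Single values were compared by exact permutation tests, two-sided, over 10 splits. Exon lengths, overlaps and coordinates came from GENCODE M21, and copies from blastn 2.17.0 (at least 85% identity over 200 bases). The study's methods give n as animals. The limma-trend procedure was tested on simulated data.

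The 6 genes and the lists were chosen with earlier results of these data known. Named were the 6 genes, the 3 genes of smallest unadjusted p in each list, all INK4, CIP/KIP, p107, p130 and E2F genes, the 2 genes most like each member, exon neighbours, Arntl and defining markers. Ccne1, Foxm1, Myc, Kdr, Mki67, Cdc37 and Hsp90ab1 were named after their values were seen. Some marker results are not reported here.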

Additional observations from a re-analysis of the deposited data

How the results depend on the processing

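The 6 members and the genes of the pathway lists gave 0 calls at an adjusted p under 0.05 in all 15 alternatives of the test across genes. Over all tested genes limma-trend called 0, DESeq2 called 67, and edgeR with either scaling called 0. A filter of at least 1 read in total or of at least 10 reads in every library gave 1 call each, and leaving out 1 library gave 0 to 6, the 6 without control library 1. Ccnd1 stayed higher in Bmal1;CKO in 17 of 17 alternatives (log2 fold change 0.44 to 1.29), and its adjusted p ranged from 0.425 to 1.00. Rb1 stayed lower in 17 of 17 (-1.39 to -0.40). A filter cannot change the fold change of a gene. For Ccnd1, whose groups did not overlap, leaving out 1 library cannot turn the sign either. The alternatives are therefore not 17 independent checks.

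The sign turned for 4 members, none of which passed the test. Ccnd2 was 0.10 without control library 1 (-0.84 to 0.10 with 1 library left out) and 0.22 relative to the endothelial markers. Ccnd3 was -0.11 relative to the microglial markers. Cdk4 was -0.03 without control library 2, -0.085 without Bmal1;CKO library 4 (-0.085 to 0.13 with 1 library left out) and -0.27 relative to the microglial markers. Cdk6 was 0.021 in limma-voom, 0.54 without control library 1 (-0.54 to 0.54 with 1 library left out), 0.08 without Bmal1;CKO library 6 and 0.51 relative to the endothelial markers. The difference in the share of Cdk6 ran from -0.97 to 0.47 percentage points with 1 library left out, above 0 without control library 1. With 1 library left out, the list median ran from -0.11 to 0.26 for pocket proteins, E2F and DP factors and from -0.32 to -0.00289 for E2F target genes, both highest without control library 3. The cause was not tested.

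Over all tested genes the median was 0.11 on the log2 scale in limma-trend, -0.03 in edgeR and DESeq2, and -0.01 with at least 10 reads in every library. TMM scaling left it at 0.10 in limma-trend and -0.03 in edgeR. In limma-trend it was 0.000586 without control library 1, and 0.08 to 0.14 when any other library was left out. The cause of the shift was not tested. Amplified reads are not independent molecules. No paired analysis was possible because the table's columns carry no replicate numbers of the sample descriptions.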
